A study of Rattus norvegicus with 9 samples.

Results

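Genes of the blood-brain barrier and of endothelial cell junctions were followed through ischemic stroke and its treatment in rat brain. The members were Cldn5, Ocln, Tjp1, Cdh5, Pecam1, Slc2a1, Abcb1a, Abcg2 and Plvap, that is 9 of the 19293 gene symbols on the array. They were found by symbol among the 30367 probes that are not controls, which gave 10 probes, because Tjp1 has an additional one. The brightest probe of a gene, by its mean log2 intensity over the 9 arrays, stood for that gene. Each of the 10 probes was well above background on every array, so no member was lost to the filter on dim probes.

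The arrays were one-color Agilent rat arrays hybridized with RNA from the infarcted hemisphere of male Sprague-Dawley rats, taken at day 14. I/R rats had the middle cerebral artery blocked by a filament for 2 h and then reperfused, which is a model of stroke with restored flow. DHI rats had the same surgery and then received Danhong injection, a preparation of Salvia miltiorrhiza and Carthamus tinctorius, through the tail vein every day until day 14. Sham rats had the vessel exposed with no filament and were given the solvent. There were 3 arrays in each group. What the I/R rats were injected with, and the age of the rats, are not given in the sources used here. No genetic modification was named for any group. The study calls the arrays of a group biological replicates, and the labels do not name the animals behind them, so the p-values measure the spread between these samples.

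Brain capillaries keep blood solutes out of the tissue because their endothelial cells are sealed by tight junctions, carry few vesicles, and pump or carry selected molecules through transporters. Claudins and occludin form the sealing strands and zonula occludens proteins tie them to actin, while adherens junction cadherins hold neighbouring cells together. Ischemia is known to open this barrier, and the vessels of regions without a barrier instead carry diaphragms that cover their pores and vesicles.

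The array reads each transcript with a 60-base probe. The probes of the claudin and of the cadherin are shown because these proteins define the tight and the adherens junction of brain endothelium. No base is marked by capitals.
Cldn5: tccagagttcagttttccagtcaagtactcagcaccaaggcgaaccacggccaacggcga
Cdh5: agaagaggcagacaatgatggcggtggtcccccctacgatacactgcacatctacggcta
In rn4, the build named in the array files, the Cldn5 probe lies on the minus strand of chr11_random:1224740-1224799 and the Cdh5 probe on the minus strand of chr19:779665-779724. Their GC content was 55% each, against a median of 45% over all 30367 probes. The other members' probes ranged from 55% for Slc2a1 down to 16.7% for Abcb1a.

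Values are log2 intensities relative to the 75th percentile of the same array, so 0 is the intensity at that percentile. A value compares arrays for one probe and does not rank genes against each other. Differences were tested with limma across all 23747 probes that were well above background on every array of at least one group. A gene was called at the thresholds of the study, an unadjusted p under 0.05 and a fold change above 1.5, which is 0.585 on the log2 scale. The p adjusted over all probes by Benjamini-Hochberg is given beside it.

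The arrays of a group were not alike in their cell markers. The summed level of the 12 microglia and macrophage markers, as log2, was 4.83 to 5.02 in Sham and 7.55 to 8.90 in I/R, and it was 8.05, 5.10 and 5.50 on DHI arrays 1, 2 and 3. The 10 neuron markers summed to 6.19 to 6.41 in Sham, to 2.67, 3.97 and 5.15 in I/R, and to 4.51, 6.31 and 5.87 in DHI. DHI array 1 thus lay within the I/R range for both lists, while DHI arrays 2 and 3 lay near Sham. Markers of choroid plexus summed to 6.62 on I/R array 3, to 7.23 on DHI array 1 and to 6.31 on DHI array 3, against at most 3.44 on every other array. On those arrays the sum was almost all Ttr, which read 6.53, 7.05 and 6.20. The median of the 9 markers ordered the arrays otherwise. It was -2.37, -1.10 and -0.86 on I/R arrays 1, 2 and 3, and 0.17, -4.61 and -2.52 on DHI arrays 1, 2 and 3. One slide held the Sham and I/R arrays and another the DHI arrays, so DHI and slide cannot be told apart. In whole tissue, fewer cells of a type and less RNA per cell cannot be told apart either. Of the 21 endothelial marker genes tested, 20 were well above background on every array.

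In I/R versus Sham, 1 of the 9 members was called, Pecam1, which was higher. Over all probes, 43.1% were called in this comparison, 20.8% higher and 22.3% lower. With the adjusted p in place of the unadjusted one, 0 members passed, against 31.5% of all probes. The groups did not overlap for 4 members, against 62.5% of all probes. The median difference of the members was 0.16, and that of all probes was -0.10.

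In the comparison of DHI with I/R, 1 member was called, Abcg2, which was lower, against 21.9% of all probes, 11.5% higher and 10.5% lower. No member had groups that did not overlap, against 9.54% of probes. In DHI versus Sham, 1 member was called, Abcb1a, which was lower, against 3.58% of probes, 2.52% higher and 1.06% lower. The groups did not overlap for 3 members, against 18.6% of probes. With the adjusted p, 0 members passed in either comparison with DHI, where limma passed 0.00421% of probes (1 probe) against I/R and 0% against Sham. At an unadjusted p under 0.05 alone, 2 members passed against I/R and 1 against Sham. The share of higher among all called probes was 48.3%, 52.2% and 70.4% in I/R versus Sham, DHI against I/R and DHI against Sham. Other scalings moved it, to 60.9%, 4.8% and 5.21% with unscaled arrays, 13%, 68.4% and 4.65% with arrays centred on the median and 16.1%, 81.9% and 41% on the mean of the endothelial genes described below, and in the comparisons with DHI to 63.7% and 92.9% with normexp and, against Sham, to 37.5% with quantile normalization and 37% in the authors' log2 table. These comparisons share arrays, so their differences are not independent.

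**Figure D1:**
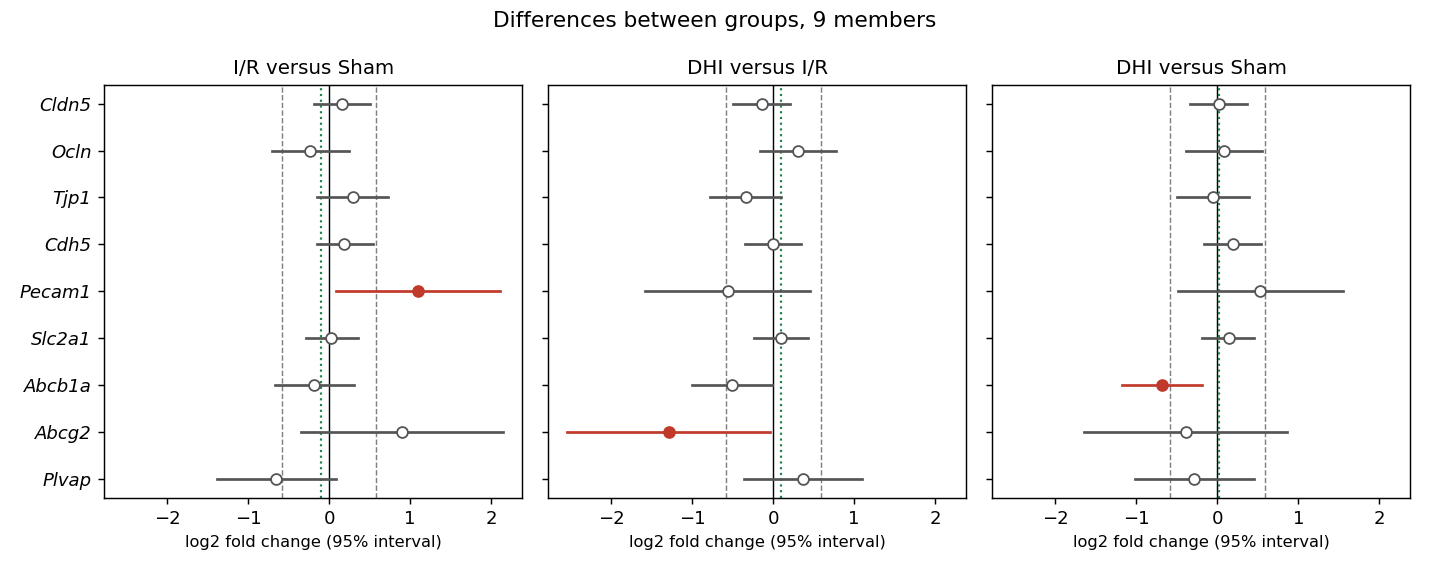
Log2 fold change of each member in the 3 comparisons, as points with 95% intervals from limma. Filled red points were called, dashed lines mark a fold change of 1.5, and the dotted line is the median of all probes. Pecam1, Abcg2 and Abcb1a are each called in 1 comparison, and the intervals of Cldn5, Cdh5 and Slc2a1 stay within the dashed lines in all 3.

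The tight junction genes were close to their Sham levels on most arrays. Cldn5, the main claudin of brain endothelium, read 1.11, 1.03 and 1.00 in Sham, 1.38, 0.97 and 1.27 in I/R, and 1.11, 1.11 and 0.98 in DHI. I/R array 2 lay below every Sham array and the other I/R arrays above them, so the groups overlapped. The difference was 0.16 in I/R versus Sham with a 95% interval of -0.19 to 0.51, -0.14 in DHI against I/R with an interval of -0.49 to 0.21, and 0.02 in DHI versus Sham with an interval of -0.33 to 0.37. None was called, and at this scaling each interval excludes a fold change of 1.5 in either direction. Cldn5 was called lower in DHI versus I/R with unscaled arrays (-0.60). It was also called lower in I/R versus Sham with arrays centred on the median of the endothelial genes described below (-0.64).

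Ocln encodes occludin, a membrane protein of the junction strands. It read -1.34, -1.22 and -1.04 in Sham, -1.29, -1.24 and -1.76 in I/R, and -1.38, -0.89 and -1.08 in DHI. I/R array 3 was the lowest of the 9, and the other I/R arrays were inside the Sham range. The difference was -0.23 in I/R versus Sham (interval -0.70 to 0.24), 0.31 in DHI versus I/R (-0.16 to 0.78) and 0.08 in DHI versus Sham (-0.39 to 0.55), and none was called. The first interval reaches past a 1.5-fold decrease and the second past a 1.5-fold increase, so changes of that size are not excluded.

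Tjp1 encodes ZO-1, the scaffold under the junction. Its brightest probe read 0.51, 0.60 and 0.60 in Sham, 0.99, 0.81 and 0.78 in I/R, and 0.91, 0.23 and 0.42 in DHI. All 3 I/R arrays were above all 3 Sham arrays, and DHI array 1 was at the I/R level while the other DHI arrays were below every Sham array. The difference was 0.29 in I/R versus Sham (SE 0.19, limma adjusted p = 0.249), -0.34 between DHI and I/R (SE 0.19, limma adjusted p = 0.248) and -0.05 between DHI and Sham, and none was called. The additional Tjp1 probe differed by -0.10, -0.07 and -0.17 in the same comparisons, so the probes disagreed in sign for I/R versus Sham, with neither called. Without DHI array 1, the brightest probe differed by -0.54 between DHI and I/R (limma adjusted p = 0.0201), and its fold change still stayed under 1.5.

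The adhesion genes of the endothelial contact are Cdh5 and Pecam1, of which Pecam1 was called higher in I/R and Cdh5 was not called. Cdh5, the vascular endothelial cadherin of adherens junctions, read -3.69, -3.47 and -3.48 in Sham, -3.20, -3.30 and -3.56 in I/R, and -3.40, -3.31 and -3.37 in DHI. The spread over all 9 arrays was narrow, and the DHI arrays lay just above every Sham array. The difference was 0.19 in I/R versus Sham (-0.15 to 0.54), 0.00 in DHI versus I/R (-0.35 to 0.34) and 0.19 in DHI versus Sham (-0.16 to 0.54). None was called, and at this scaling these intervals also exclude a fold change of 1.5. With arrays centred on the endothelial median, Cdh5 was called lower in I/R versus Sham (-0.60).

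Pecam1 encodes CD31, an adhesion molecule of endothelial contacts that leukocytes and platelets also carry. It read -0.93, -0.99 and -1.10 in Sham, 1.12, -0.08 and -0.78 in I/R, and -0.03, -0.61 and -0.79 in DHI. Every I/R and every DHI array was above every Sham array, and the I/R arrays spanned a far wider range than the Sham arrays. Pecam1 rose 2.14-fold in I/R versus Sham (log2 difference 1.1 on this scale, SE 0.44, limma adjusted p = 0.0823). The DHI arrays differed from I/R by -0.56 (SE 0.44, limma adjusted p = 0.379) and from Sham by 0.53 (limma adjusted p = 0.71), neither called. Without I/R array 1 the Pecam1 difference from Sham was 0.58 and no longer called (limma adjusted p = 0.193), and without I/R array 3 it was 1.53 and still called (limma adjusted p = 0.0213). The Pecam1 call was also lost without Sham array 1, 2 or 3, I/R array 2 or DHI array 2, with differences of 1.05 to 1.18 and limma adjusted p between 0.0996 and 0.178. With limma on the Sham and I/R arrays alone (adjusted p = 0.0978), and with the plain t-test of the study's methods (the methods' t-test), Pecam1 was not called either. Between DHI and I/R, Pecam1 was called only without I/R array 3 among these leave-outs, where it differed by -0.99 (limma adjusted p = 0.112).

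Other cells carry Pecam1 too, and the microglia and macrophage markers were higher in the I/R arrays while the platelet markers went both ways. In I/R versus Sham, 11 of the 12 microglia and macrophage markers were called higher and 0 lower, with a median difference of 3.60. The summed level of this list was 8.90, 8.58 and 7.55 on I/R arrays 1, 2 and 3, where Pecam1 read 1.12, -0.08 and -0.78. Each of the 12 markers of this list was well above background on every array. Of the 3 platelet markers tested, 1 was called higher (Pf4, 3.83) and 1 lower (Gp1bb, -2.02). The 4 on the array summed to 2.75 to 3.29 in Sham and 1.68 to 2.38 in I/R. In Sham that sum was almost all Gp1bb, which read 3.24, 3.27 and 2.73, so its fall is that of 1 marker. The part of these cells in the Pecam1 difference was not tested.

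**Figure D2:**
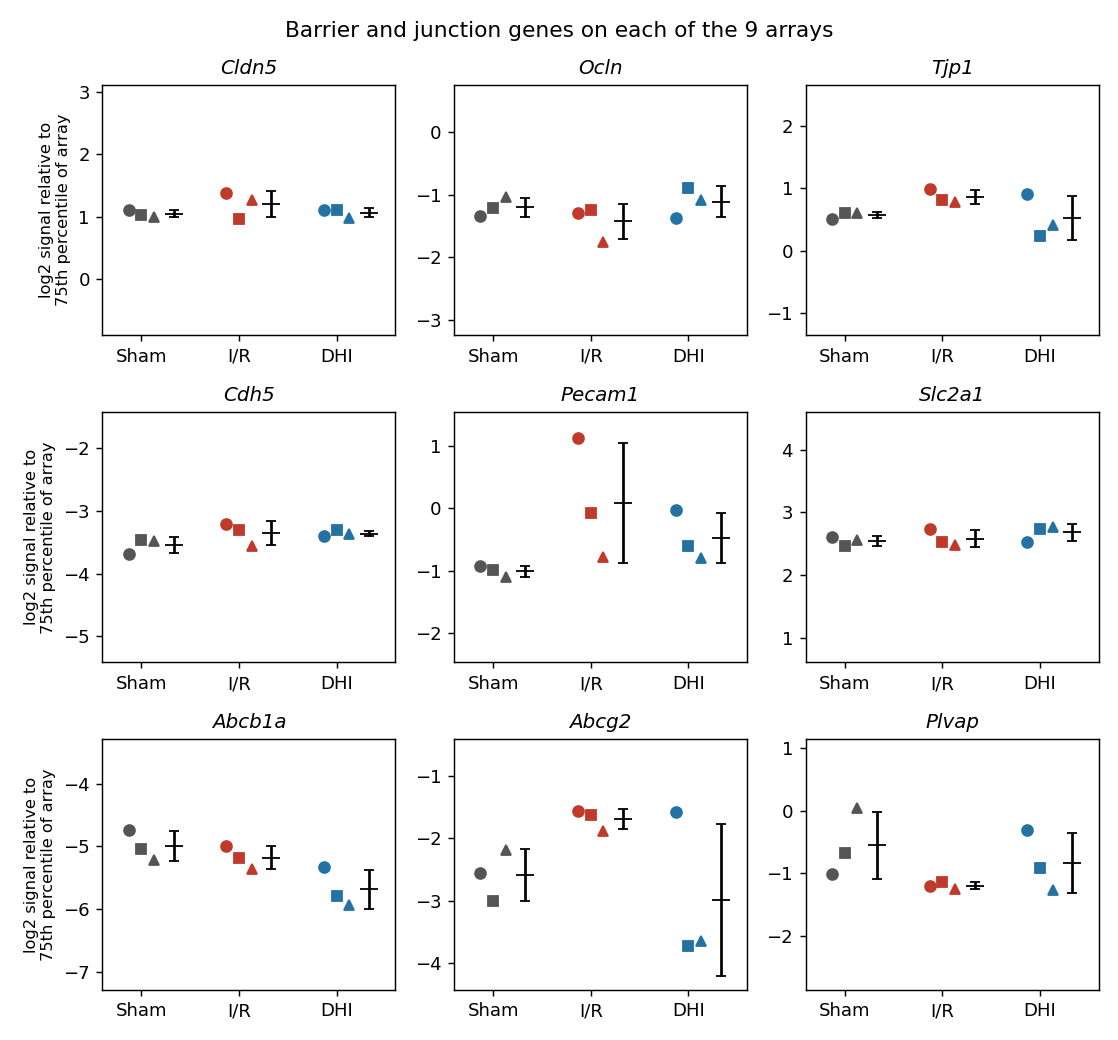
Log2 signal of the 9 members minus the array's 75th percentile, with the circle, square and triangle for arrays 1, 2 and 3 of a group and bars for the mean and SD. Each panel spans 4 log2 units around its own mean. Pecam1 and Abcg2 spread widest within a group, and for Abcg2 the first DHI array sits with the I/R arrays.

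The transporter genes of the barrier included the most stable and the most variable members. Slc2a1 encodes GLUT1, which carries glucose into the brain. It read 2.61, 2.46 and 2.56 in Sham, 2.73, 2.53 and 2.48 in I/R, and 2.53, 2.74 and 2.77 in DHI. The groups overlapped in each comparison, and the differences of 0.03 (-0.29 to 0.36), 0.10 (-0.23 to 0.43) and 0.14 (-0.19 to 0.46) had intervals that exclude a fold change of 1.5 at this scaling. With arrays centred on the endothelial median, Slc2a1 was called lower in I/R versus Sham (-0.76).

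Abcg2 encodes the breast cancer resistance protein, an efflux pump on the blood side of brain endothelium. It read -2.56, -3.01 and -2.19 in Sham, -1.57, -1.63 and -1.88 in I/R, and -1.58, -3.72 and -3.65 in DHI. All I/R arrays were above all Sham arrays, DHI array 1 was inside the I/R range, and DHI arrays 2 and 3 were below every Sham array. In intensity units the Abcg2 probe gave 434, 340 and 578 in Sham, 885, 992 and 944 in I/R, and 935, 138 and 169 in DHI.

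In I/R versus Sham the Abcg2 difference was 0.90 (SE 0.54, limma adjusted p = 0.209) and was not called. It was called with limma on the Sham and I/R arrays alone (adjusted p = 0.0262), where it replaced Pecam1 as the single called member, likewise with the methods' t-test, and with array weights (0.97, limma adjusted p = 0.00561). With treatment, Abcg2 fell 2.44-fold against I/R (log2 difference -1.29, SE 0.54, limma adjusted p = 0.196). That fall was not called with limma on the I/R and DHI arrays alone (adjusted p = 0.351) or with the methods' t-test. In DHI versus Sham it was -0.39 (SE 0.54), with an interval of -1.64 to 0.86. The call in DHI versus I/R was lost when any array other than DHI array 1 was left out. The Abcg2 difference was then -1.29 without any one Sham array, -1.23, -1.26 and -1.38 without I/R arrays 1, 2 and 3, and -0.92 and -0.95 without DHI arrays 2 and 3, with limma adjusted p between 0.157 and 0.539.

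Without DHI array 1, Abcg2 differed by -1.99 between DHI and I/R, and the limma adjusted p was 0.00247. In that setting 2 members, Abcg2 and Abcb1a, were called between DHI and I/R, against 45.2% of all probes. In I/R versus Sham the Abcg2 difference of 0.90 was then called as well (limma adjusted p = 0.0141), and the DHI difference from Sham was -1.09 and called (limma adjusted p = 0.732).

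Abcb1a encodes P-glycoprotein, the other large efflux pump of the barrier. It read -4.74, -5.04 and -5.22 in Sham, -5.00, -5.18 and -5.37 in I/R, and -5.33, -5.80 and -5.93 in DHI. The Sham and I/R arrays overlapped, and every DHI array was below every Sham array. Abcb1a fell 1.61-fold in DHI versus Sham (log2 difference -0.68, SE 0.21, limma adjusted p = 0.709). Against I/R the DHI difference was -0.51 (limma adjusted p = 0.196), a fold change of 1.42 that did not reach the threshold, and in I/R versus Sham the difference was -0.18.

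The Abcb1a probe was the dimmest member, with intensities of 70 to 96 in Sham, 82 to 85 in I/R, and 69, 33 and 35 in DHI. The DHI difference from Sham was -0.07 (limma adjusted p = 0.847) with normexp background correction of the spot means, and the call was lost. That alternative also replaces the processed signal by the spot mean and adds an offset of 50, and which of these moved the value was not tested. Without Sham array 1 it was -0.56 (limma adjusted p = 0.759) and without DHI array 3 also -0.56 (limma adjusted p = 0.69), and each ended the Abcb1a call. Between DHI and I/R, Abcb1a was called without I/R array 3 (-0.60, limma adjusted p = 0.119) and without DHI array 1 (-0.68). Since all DHI arrays were on the other slide, treatment and slide cannot be told apart for Abcb1a. Its near copy Abcb1b, on a separate probe, was lower in DHI than in I/R by -0.66 (called, limma adjusted p = 0.196) and differed from Sham by -0.14, which was not called. Transcripts of these closely related genes may be read by the same probe.

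Plvap encodes the protein of the diaphragms in fenestrated vessels and is scarce in mature barrier vessels. It read -1.01, -0.68 and 0.04 in Sham, -1.20, -1.14 and -1.25 in I/R, and -0.31, -0.92 and -1.26 in DHI. The I/R arrays agreed closely and lay below every Sham array, while the Sham and DHI arrays spread over more than 0.9 log2 units. The difference was -0.65 in I/R versus Sham (SE 0.32, limma adjusted p = 0.134), 0.37 between DHI and I/R and -0.28 between DHI and Sham, and none was called. Without Sham array 1 the I/R difference was -0.88 and called (limma adjusted p = 0.0986), and without DHI array 1 it was -0.65 and called (limma adjusted p = 0.077). Without Sham array 3 it was -0.35. Plvap is also found in vessels of the choroid plexus, whose marker sum was 2.32 on Sham array 3, 6.62 on I/R array 3, 7.23 on DHI array 1 and 6.31 on DHI array 3, where Plvap read 0.04, -1.25, -0.31 and -1.26. The median of these markers was -4.03, -0.86, 0.17 and -2.52 on those arrays. On I/R array 2 it was -1.10, where Plvap read -1.14. The part of the choroid plexus in the Plvap values was not tested.

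Few of the other junction genes were called. In I/R compared to Sham, 3 of the 15 tested were called higher and 0 lower, against 20.8% and 22.3% of all probes, with a median of 0.27, or -0.52 with arrays centred on the endothelial identity genes described below. The 3 were F11r (1.43, limma adjusted p = 0.0502), which encodes the junctional adhesion molecule A, Ctnna1 (0.87, limma adjusted p = 0.048) and Ctnnb1 (0.72, limma adjusted p = 0.074), the alpha and beta catenins that join cadherins to actin. The lowest value was that of Cldn3 (-2.54, limma adjusted p = 0.119), which was not called and was well above background on only 2 of the 3 I/R arrays. Between DHI and I/R 0 of the 15 were called, against 21.9% of all probes, with F11r at -0.85 and Cldn3 at 2.67. Between DHI and Sham 0 were called, against 3.58% of all probes. Catenins and F11r are made by many cell types, so these values are not specific to vessels.

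Barrier transporters outside the members held called genes of both directions. In I/R compared to Sham 6 of 18 were called higher and 4 lower, against 20.8% and 22.3% of all probes, with a median of 0.45, or -0.35 with arrays centred on the endothelial identity genes. The highest was the amino acid transporter Slc38a5 (1.35, limma adjusted p = 0.0396) and the lowest the transferrin receptor Tfrc (-1.06, limma adjusted p = 0.0396). The others that fell were Mfsd2a (-0.99), the carrier of docosahexaenoic acid as lysophospholipid that is known to hold down vesicle transport in brain endothelium, the thyroxine carrier Slco1c1 (-0.99) and the cationic amino acid carrier Slc7a1 (-0.74).

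Mfsd2a read -0.94, -1.19 and -0.98 in Sham, -1.61, -2.09 and -2.38 in I/R, and -1.53, -0.97 and -0.80 in DHI. The I/R arrays were below every other array, with DHI array 1 just above them. With DHI, Mfsd2a (0.93), Tfrc (0.77) and Slco1c1 (0.72) were called higher and Slc3a2 (-0.62) and Abcb1b (-0.66) lower than in I/R, each with a limma adjusted p of 0.196. Over all probes, 11.5% were called higher and 10.5% lower in that comparison. Red blood cell markers had summed levels of 1.91 to 4.89 in Sham, 1.22 to 1.75 in I/R and 2.88 to 5.28 in DHI, and red cell precursors also carry the transferrin receptor. Of the 4 measured, 3 were called lower and 1 higher in I/R compared to Sham, and 3 higher and 1 lower in DHI compared to I/R. Their part in the Tfrc values was not tested. Against Sham, 0 of the 18 transporters were called in DHI, where 3.58% of all probes were called.

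Among endothelial identity genes, 9 of 21 were higher by the call and 0 lower in I/R compared to Sham, against 20.8% and 22.3% of all probes, with a median of 0.44 that is -0.36 once arrays are centred on the median of these genes themselves. The highest was Eng (2.45, SE 0.58, limma adjusted p = 0.0396), which encodes the endothelial TGF-beta coreceptor endoglin, and the lowest Robo4 (-0.49, limma adjusted p = 0.122), which was not called. Against I/R, 6 were called lower in DHI and 0 higher, against 10.5% and 11.5% of all probes, with a median of -0.33, near 0 (-0.03) after that centring and 0.08 after centring on their mean, and with Eng at -1.81 (limma adjusted p = 0.196). In DHI versus Sham 0 were called, against 3.58% of all probes. Endoglin is also made by activated macrophages and fibroblasts, and all 8 fibroblast and meningeal markers were called higher in I/R, with summed levels of 2.83 to 3.57 in Sham and 6.30 to 6.95 in I/R.

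Genes of caveolae and of leaky or activated vessels had the highest median of the 7 vessel lists in I/R versus Sham. The medians of the microglia and macrophage markers (3.60) and of the fibroblast and meningeal markers (3.30) were higher still. The list is not specific to vessels, and the part of those cells in its values was not tested. For 9 of 12 the I/R level was called higher than Sham and for 0 lower, against 20.8% and 22.3% of all probes, with a median of 1.61, or 0.81 with arrays centred on the endothelial identity genes. Esm1, a proteoglycan secreted by sprouting endothelium, was well above background on 0 Sham and 3 I/R arrays, so its probe is not among those detected on every array. Its I/R level was at least 82.6-fold higher, which is a bound and not a test result. Of the 11 genes of this list well above background on all 9 arrays, 8 were called in I/R versus Sham. The lowest was the peptide gene Apln (-0.71, limma adjusted p = 0.103), which was not called. In DHI, 4 were called lower than in I/R, against 10.5% of all probes, namely Angpt2 (-2.28), Icam1 (-2.02), Emp1 (-1.56) and Vcam1 (-1.30), with adjusted p from limma of 0.196 for each. In DHI, Esm1 read -1.55, -8.70 and -6.10, and on array 2 it was inside the Sham range of -9.54 to -8.46. It was called against Sham (limma adjusted p = 0.709), the single call of this list between these groups. The list had 0 calls there without any one Sham or I/R array and with the methods' t-test. Its count there was 4 without DHI array 2, 3 with normexp and 2 with array weights.

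The vessel surroundings were described in the same way. Of 15 genes of the Wnt and beta-catenin program that sets up the barrier, 4 were called higher in I/R compared to Sham and 0 lower, against 20.8% and 22.3% of all probes, and the pathway target Axin2 was lowest (-0.46, not called). Of 13 pericyte and smooth muscle genes 4 were called higher and 0 lower, with Anpep highest (3.43, limma adjusted p = 0.0397) and Abcc9, a channel subunit of pericytes, lowest (-0.64, not called). Anpep is also made by myeloid cells and fibroblasts. Of 9 astrocyte endfoot genes 4 were called higher, led by the water channel Aqp4 (1.47, limma adjusted p = 0.0406), and 2 lower, of which the potassium channel Kcnj10 was lowest (-1.12, limma adjusted p = 0.0536) and was well above background on 2 of the 3 I/R arrays. With DHI 1, 2 and 2 genes of these lists were called lower than in I/R and 0 higher, against 10.5% and 11.5% of all probes. The 1 of the Wnt list was Sox17 (-0.77), which was well above background on 2 I/R arrays and 1 DHI array. Of the 13 Wnt genes well above background on all 9 arrays, 0 were called in that comparison. Against Sham, 0 were called in any of the 3 lists, where 3.58% of all probes were called. The medians of these lists in I/R versus Sham, 0.29, 0.54 and 0.51, became -0.51, -0.26 and -0.29 with arrays centred on the endothelial identity genes. Esam, Ctnnb1 and Sox17 each stand in a pair of the vessel lists. Sox17 is thus also among the 6 endothelial identity genes called lower in DHI than in I/R.

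The counts of called list genes in the comparison of DHI with I/R depended on single arrays, and so did the count over all probes. That count was 10737 (45.2%) without DHI array 1, and 939 and 1127 without DHI arrays 2 and 3. It was 1381, 1659 and 7719 without I/R arrays 1, 2 and 3, and 469 with the methods' t-test. The swings of the list counts are thus not particular to these lists. Without DHI array 1, 4 junction genes, 11 transporters, 10 endothelial identity genes and 9 genes of caveolae and leaky vessels were called. Without DHI array 2 or DHI array 3, the counts of these 4 lists were 0, 1, 1 and 0, and without I/R array 1 they were 1, 2, 1 and 0. They were 2, 2, 3 and 1 without I/R array 2, and 3, 6, 8 and 4 without I/R array 3. With the methods' t-test the counts were 0, 1, 1 and 0. In the lists of the Wnt program, pericytes and endfeet, 3, 5 and 7 genes were called without DHI array 1, against 1 to 4 in any of these lists without any other array. In I/R versus Sham the Wnt count was 1 without I/R array 1 or any one Sham array and 0 without I/R array 2. The junction count there was 1 without I/R array 1 or Sham array 1, 2 without Sham array 2 or 3, and 5 without I/R array 3. Over all probes the count in I/R versus Sham ran from 7517 without I/R array 1 to 11539 without I/R array 3.

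**Figure D3:**
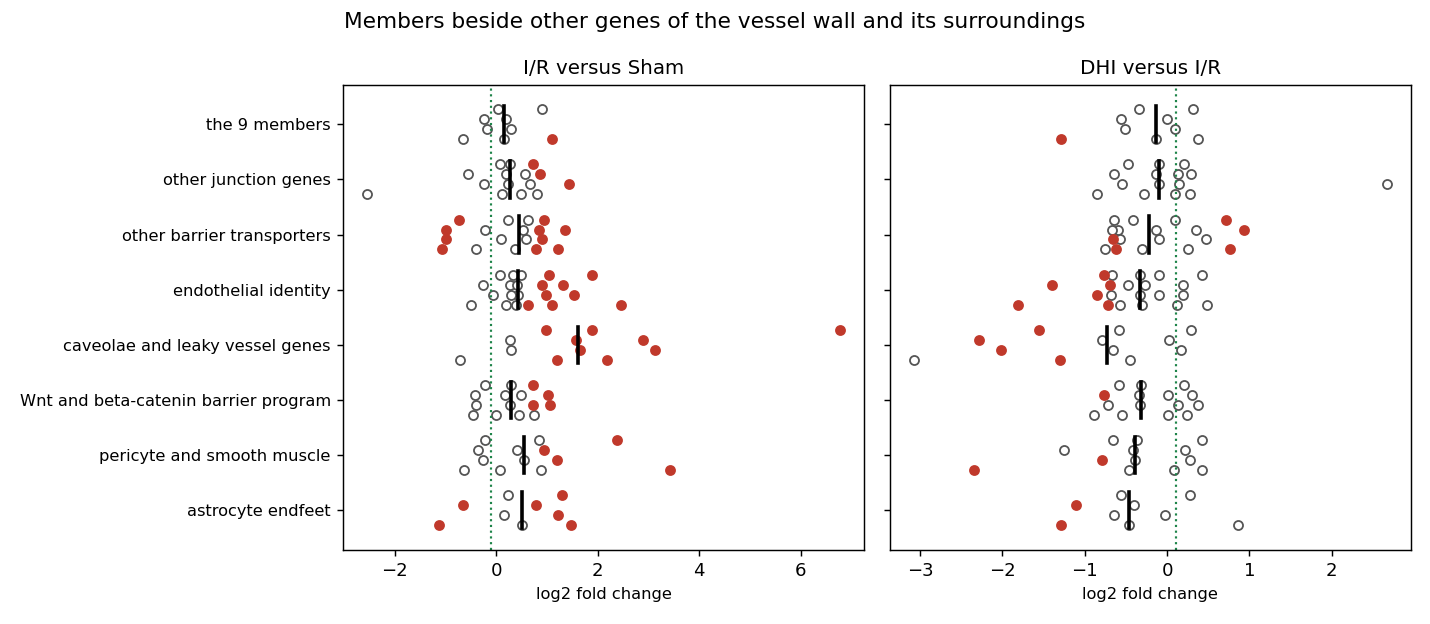
Log2 fold change of the 9 members and of the genes of 7 lists in I/R against Sham and in DHI against I/R. Filled red points were called, thick bars are list medians, and the dotted line is the median of all probes. In I/R versus Sham the members' median of 0.16 is the lowest of the list medians, and that of the caveolae and leaky vessel genes is 1.61. With arrays centred on the endothelial identity genes, the medians of the other 6 lists turned negative in I/R versus Sham.

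The arrays were also centred on the endothelial identity genes, so that a member was read relative to the centre of that list. The median level of those 21 genes was -2.17 to -1.71 in Sham, -1.33 to -0.86 in I/R and -1.67 to -1.11 in DHI. It is the level of the middle gene on each array, and that gene can differ between arrays. In I/R versus Sham the list's own median difference of 0.44 became -0.36 with this centring and -0.22 on the mean. Either centre thus rose more than the list's median gene, and the calls below depend on the choice of centre. With each array centred on this median, 6 members were called lower in I/R versus Sham. Over all probes 64.8% were called in either direction, 2007 higher and 13384 lower. The 6 members were Cldn5 (-0.64), Ocln (-1.03), Slc2a1 (-0.76), Abcb1a (-0.98), Cdh5 (-0.60) and Plvap (-1.44). Pecam1 was 0.30 and Abcg2 0.10, neither called. On the mean of the list instead, 4 were called lower, Ocln (-0.89), Slc2a1 (-0.63), Abcb1a (-0.84) and Plvap (-1.31). Over all probes 62% were then called in either direction, 2367 higher and 12350 lower.

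The signs of Cldn5, Tjp1, Slc2a1 and Cdh5 in I/R versus Sham thus turned with the scaling, from small positive values relative to all spots to negative ones relative to either endothelial centre. Centring on the list median moved the median difference of all probes from -0.10 to -0.90, and centring on its mean moved it to -0.76. Some genes of the list are also made by cells whose markers were higher in I/R, as given above, and the part of those cells was not tested.

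**Figure D4:**
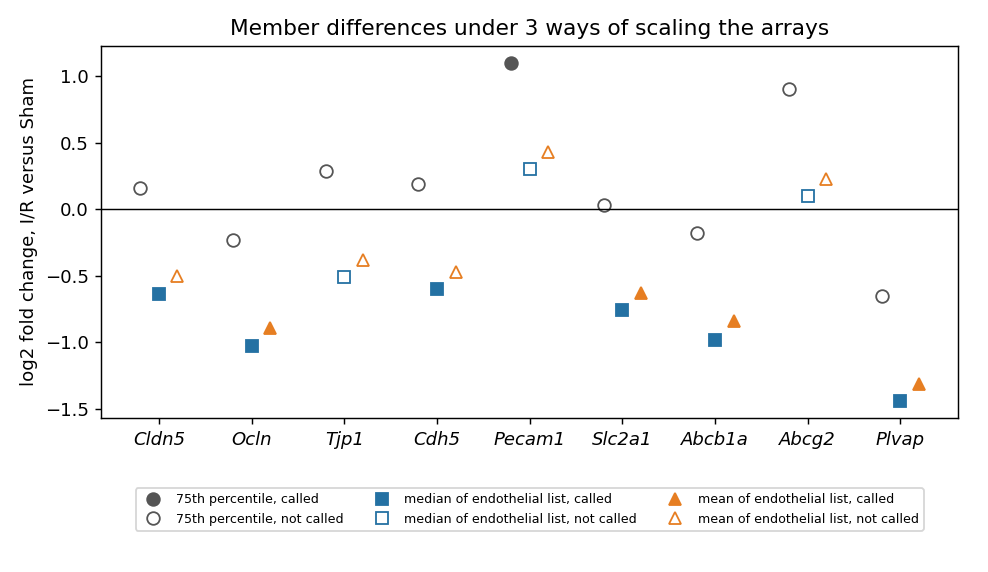
Log2 fold change of each member in I/R versus Sham with arrays scaled to the 75th percentile of all spots (circles), to the median (squares) or to the mean (triangles) of 21 endothelial identity genes. Filled symbols were called. The same data give 1, 6 and 4 called members, and for Cldn5, Tjp1, Cdh5 and Slc2a1 the sign differs between the first and the other scalings.

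The genes whose patterns were nearest to each member were found by the root mean square difference over the 9 arrays, after each gene was set to its own Sham mean, among 15576 genes. For Cldn5 they were Tars and Thumpd3 (0.0762 and 0.0935), for Ocln RGD1561481 and Pogk (0.0808 and 0.0843), for Tjp1 Mesdc2 and Zbed3 (0.0612 and 0.0619), for Slc2a1 Tbl3 and Man1b1 (0.0567 and 0.0615), and for Cdh5 Usp8 and Rpp21 (0.0625 and 0.0643). The members with wider swings had more distant neighbours. These were Fgfbp3 and RGD1309085 for Abcb1a (0.214 each), RGD1562378 and RGD1562216 for Abcg2 (0.283 and 0.298), Baiap2l2 and LOC290577 for Pecam1 (0.185 and 0.186), and Tm4sf19 and Zfp488 for Plvap (0.239 and 0.247). No member was compared with another member in this search.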

How the data were processed

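RNA of 9 infarcted or sham hemispheres was measured on one-color arrays with 62976 spots each. The deposited scanner files, made by the authors with Agilent Feature Extraction 10.7.1.1, hold background-subtracted processed intensity per spot. The authors' deposited series table holds log2 values that followed quantile-normalized log2 intensity (r = 0.99953 on each array) and served as an alternative. Control spots and outlier spots were left out, spots of a probe were averaged as log2, and the 75th percentile of the array (1816.3 to 3464.4 intensity units) was subtracted. Between 75.2% and 78.9% of probes were well above background, and the number of arrays limits the precision. limma 3.58.1 in R 4.3.3 was fitted once to 9 arrays, with 6 residual degrees of freedom, and was checked on simulated data.

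The members, gene lists and thresholds were chosen with earlier results of these data known. The text names the members, the highest and lowest tested gene of each list in I/R versus Sham, and the 2 nearest genes of each member. One gene this rule names is not reported here. The catenins, the other transporters that fell or were called with DHI, and Angpt2, Icam1, Emp1 and Vcam1 were named after their values were seen. So were Ttr, Gp1bb, Pf4 and Sox17. A bound for a gene not well above background in a group uses the lowest signal among probes well above background on each array. Alternatives were quantile, unscaled, endothelial and normexp scaling (offset 50), the series table, other filters, array weights, a replicate block, the methods' t-test and leaving out each array. Replicate numbers did not pair the samples.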

Additional observations from a re-analysis of the deposited data

How the results depend on the processing

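Of the members' fold changes over the alternatives, 529 kept direction and call, 28 gained a call in the same direction, 28 lost one and 36 changed sign, 4 of them with a call gained. The 529 include all 23 values of Cdh5 in DHI versus I/R, whose main value of 0.00 has no sign to change. Those values ran from -0.47 to 0.41, with 0 called. With 1 member called in each comparison, unscaled arrays called 5 in DHI versus I/R. They also moved the median of all probes from -0.10, 0.10 and 0.02 to 0.10, -0.36 and -0.25 (I/R against Sham, DHI against I/R, DHI against Sham, the order used here). Centring on the endothelial median called 6, 0 and 2 members, and on the mean, chosen after seeing the data, 4 and 2 in the first pair. Normexp called 0 in DHI versus Sham, fits of only the 2 groups compared and the methods' t-test 0 in DHI versus I/R, the adjusted p 0 in each, and array weights 3 in each, with weights from 0.0936 for DHI array 1 to 5.32 for I/R array 2. The replicate block called 1 member in each, and deviations of same-numbered arrays correlated between -0.341 and 0.476, so the numbers were not taken as pairs. Without 1 array, 0 to 3, 0 to 2 and 0 to 2 members were called. The slide could not be fitted as a block, because no group spans both slides.

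Over all probes, 10241, 5211 and 849 were called. The count became 15391 in I/R versus Sham with endothelial median centring. In DHI versus I/R it was 469 with the methods' t-test, 2149 with only the 2 groups compared, 11904 with array weights and 1 with the adjusted p. In DHI versus Sham it was 448 with the methods' t-test, 1688 unscaled, 2624 with endothelial median centring, 1341 with normexp, 1407 with no filter on dim probes, 3484 with array weights, 1280 with the replicate block and 0 with the adjusted p. Without 1 array it ran from 7517 to 11539, from 939 (without DHI array 2) to 10737 (without DHI array 1), and from 344 (without Sham array 2) to 2519 (without DHI array 2). 

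The signs that turned belonged to members with no call in that comparison. Unscaled, they were Abcb1a (0.02) in I/R versus Sham, Ocln (-0.15), Slc2a1 (-0.36) and Plvap (-0.09) in DHI versus I/R, and Cldn5 (-0.24), Ocln (-0.18), Slc2a1 (-0.13) and Cdh5 (-0.07) in DHI versus Sham. On the endothelial median they were Cldn5 (-0.64), Tjp1 (-0.51), Slc2a1 (-0.76) and Cdh5 (-0.60) in I/R versus Sham, Cldn5 (0.17) in DHI versus I/R, and Cldn5 (-0.47), Ocln (-0.41), Slc2a1 (-0.35) and Cdh5 (-0.30) in DHI versus Sham. On the endothelial mean they were Cldn5 (-0.50), Tjp1 (-0.38), Slc2a1 (-0.63) and Cdh5 (-0.47) in I/R versus Sham, Cldn5 (0.27) and Tjp1 (0.07) in DHI versus I/R, and Cldn5 (-0.23), Ocln (-0.17), Slc2a1 (-0.12) and Cdh5 (-0.06) in DHI versus Sham. Normexp turned Abcb1a (0.09) in DHI versus I/R. Array weights turned Cldn5 (-0.01) in I/R versus Sham, Plvap (-0.05) in DHI versus I/R and Cldn5 (-0.03) in DHI versus Sham. Leaving out 1 array turned Slc2a1 in I/R versus Sham (-0.04 to 0.09) and, in DHI versus Sham, Plvap (-0.54 to 0.02), Ocln (-0.03 to 0.21) and Tjp1 (-0.25 to 0.09). The cause of the turned signs was not tested. Cdh5 in DHI versus I/R, 0.00 in the main fit, could not be counted among them.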
